A study of Paralichthys olivaceus with 2 samples.

Results

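The probes described here target the starred strand of conserved miRNAs. A microRNA (miRNA) is cut from a hairpin precursor as a duplex of short strands, 1 of which is usually kept in an Argonaute protein and represses target mRNAs, while the other, the passenger strand, is usually degraded. In the older naming the passenger strand carries a star, although for some miRNAs both strands are known to be kept. The starred probes were found by name, as all probes with a zebrafish or pufferfish prefix that end with a star, leaving out miR-199* and miR-140*. They numbered 30 of the 987 probes on the array, and all 30 carried the zebrafish prefix. For each of them the array also held a zebrafish probe of the same name without the star, called the partner here.

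RNA came from whole Japanese flounder larvae (Paralichthys olivaceus). In this flatfish the symmetric larva becomes an asymmetric bottom dweller at metamorphosis. A tube of 5 larvae was used at 17 days post hatching (dph), a pre-metamorphic stage per the labels, and another tube of 5 at 29 dph, a mid-metamorphic stage. Per the labels, both tubes were collected under anaesthetic, with no other treatment given. With 1 array per stage no difference between stages has a replicate check, and no test was possible. In whole larvae, fewer cells of a type and less RNA per cell cannot be told apart.

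Each probe had 3 spots, and the SD values below are over these spots, a technical spread. A spot's value is its mean density, a linear intensity with the background still in it. The detection limit of an array was set 3 SD over the mean of its 715 empty spots, which gave 68.7 at 17 dph and 45.6 at 29 dph. A probe counted as detected if 50% or more of its spots exceeded this limit. The median of the empty spots was 45.6 at 17 dph and 38.8 at 29 dph. At 17 dph 2 empty spots were brighter than 100 and widened the limit, which was 55.9 without them. Probes differ in how well they bind, so that the brightness of a starred probe relative to its partner is a description of these probes and not a ratio of molecules.

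Of the 30 starred probes, 6 counted as detected at 29 dph and 1 of these, miR-210*, also at 17 dph. Their sequences are shown because these 6 gave the starred signals above background, and those of their partners because each is set beside its starred strand. They are the target sequences in the array tables, written 5′ to 3′ with the seed (bases 2 to 8, which pair with target mRNAs) in capitals.
miR-9*: uAAAGCUAgauaaccgaaagu
miR-9: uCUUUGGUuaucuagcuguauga
miR-210*: aGCCACUGacuaacgcacauug
miR-210: cUGUGCGUgugacagcggcuaa
miR-133a*: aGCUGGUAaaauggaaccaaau
miR-133a: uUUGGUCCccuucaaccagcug
miR-30e*: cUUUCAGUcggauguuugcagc
miR-30e: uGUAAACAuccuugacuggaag
miR-203b*: aGUGGUUCucaacaguucaaca
miR-203b: gUGAAAUGuucaggaccacuug
miR-129*: aAGCCCUUaccccaaaaagcau
miR-129: cUUUUUGCggucugggcuugcu

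The seeds of the 6 detected starred strands were all different from each other and from those of their partners. Over the 30 starred probes there were 29 distinct seeds. The shared one, CUGCAGU, belonged to miR-17a* and miR-20a*, whose precursors lie in the miR-17-92 group of clusters linked to cell proliferation, and neither was detected. The targets were 21 to 24 nt long, 22 of them 22 nt. The GC content of the 6 detected targets ranged from 33.3% to 50% with a median of 43.2%, and that of the other 24 ranged more widely, from 22.7% to 71.4%, with a median of 47.6%.

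Whether the strands of a pair can form a duplex was checked by folding each starred target against its partner. This does not tell which strand is kept, and no unrelated sequences were folded for comparison. In 29 of the 30 pairs the strands formed 13 to 20 base pairs with energies from -28.0 to -15.7 kcal/mol, and shared at most 6 bases in a row. The exception was miR-126b*, whose target is the same strand as its partner. It shares a run of 21 bases with miR-126b, the name of a relative of the endothelial miRNA miR-126, and its best duplex with it had an energy of -8.8 kcal/mol. The 3 targets below show this, with capitals at the base that differs between miR-126b* and miR-126.
miR-126b*: cguaccgugaguaauaGugca
miR-126b: ucguaccgugaguaauagugca
miR-126: ucguaccgugaguaauaAugc
The target of miR-126b* is thus not the strand opposite to miR-126b, and it was at background on both arrays, at 43.5 ± 1.58 and 38.9 ± 2.20. The probe for miR-126 had a density of 653 ± 19.2 at 29 dph, while miR-126b stood at 41.2 ± 1.08. Counted from 1 at the 5′ end of miR-126b*, the difference from miR-126 is G17A. The strand that pairs with miR-126, miR-126*, was also at background, with spots of 37.7, 38.6 and 38.5 at 29 dph.

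The first question was how many starred probes stood above the empty spots at each stage. At 17 dph 1 of 30 (3.33%) was detected, against 28.1% of the 231 conserved probes without a star and 33.3% of the 30 partners. At 29 dph 6 of 30 (20%) were detected, against 53.7% of conserved probes without a star and 63.3% of the partners. Over all 987 probes the shares were 41.7% at 17 dph and 69.7% at 29 dph. The counts were thus lower than those of the partners on both arrays, 1 against 10 at 17 dph and 6 against 19 at 29 dph. Starred probes and partners both carry zebrafish sequences. The part of sequence differences from flounder in these counts was not tested. At 29 dph 5 pairs had both strands above the limit, 14 the partner only, 1 the starred strand only and 10 neither. At 17 dph 1 pair had both, 9 the partner only and 20 neither.

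miR-210 is known in mammals as a miRNA induced by low oxygen through the HIF pathway, and its starred probe was the brightest of the 30 on both arrays. miR-210* had spots of 124.8, 162 and 142 at 17 dph and of 437, 418 and 442 at 29 dph, with means of 143 ± 18.8 and 432 ± 12.7. All 3 spots of each array were above the limit, and the spots of the arrays did not overlap before normalization. The partner miR-210 had spots of 91.8, 101.6 and 100.6 at 17 dph and of 196.7, 168 and 190.5 at 29 dph. The starred probe was brighter than its partner in every spot of both arrays.

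With the median of the empty spots subtracted, miR-210* made up 65.0% ± 2.43 of the summed density of the pair at 17 dph and 72.9% ± 1.51 at 29 dph (SD over 3 spots). The spot values were 63.1%, 67.6% and 63.6% at 17 dph and 71.6%, 74.6% and 72.7% at 29 dph. The 2 sets of spots did not overlap. The ratio of the starred probe to the partner was 1.86 at 17 dph and 2.69 at 29 dph, a log2 difference of 0.53. Multiplying an array by 1 factor does not alter this difference. Quantile normalization can, and with it the stage differences of miR-210* and miR-210 were -0.75 and -0.97, a smaller change of the ratio. In the authors' processed table the log2 difference of the ratio was 0.31. This was the only pair with both strands detected on both arrays.

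miR-9 is a miRNA of the developing nervous system, and in mammals both of its strands are known to act on regulators of neuronal genes. miR-9* was at background at 17 dph, with spots of 51.2, 55.4 and 46.4, and clearly above it at 29 dph, with spots of 332, 264 and 240. The mean at 29 dph was 279 ± 47.5, which is 7.20 times the median of the empty spots. The partner miR-9 had spots of 46.4, 50.9 and 42.2 at 17 dph and of 191.6, 154.6 and 154.9 at 29 dph. Both strands were therefore detected at 29 dph only. The starred share of the pair at 29 dph was 65.2% ± 1.42, and each spot lay between 63.5% and 66.1%.

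miR-133a, made from the same precursor transcripts as miR-1, is a miRNA of skeletal and heart muscle. miR-133a* had spots of 43.5, 51.0 and 46.0 at 17 dph, all below the limit, and of 86.3, 92.7 and 81.9 at 29 dph, all above it. Its partner was detected on both arrays, with densities of 214 ± 5.39 and 468 ± 19.2. The starred share at 29 dph was 10.1% ± 0.741, and 15.7% with no background correction. At 17 dph the limit allows a share of up to 12.1%, so that a lower share at 17 dph could not be shown. With a limit from the median and the median absolute deviation (MAD) of the empty spots, an alternative chosen after seeing the data, the share at 17 dph was at most 5.23%.

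The related miR-133b* was not detected at either stage, although its partner had densities of 179 ± 15.4 and 417 ± 15.8. Its spots at 29 dph were 38.1, 39.8 and 40.1, which limits its share to at most 1.77%. The starred targets of the pair differ at 2 positions over 21 aligned bases, A8C and A21G counted from the 5′ end of miR-133a*.

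miR-30e belongs to a broadly expressed family. miR-30e* had spots of 46.1, 54.4 and 43.0 at 17 dph and of 68.8, 64.8 and 69.5 at 29 dph. The partner was dim as well, at 49.4 ± 4.10 and 57.0 ± 5.08 on the same arrays. The starred share at 29 dph was 61.4%, with a spread of 6.39 and spots from 55.7% to 68.4%. The starred probe lay 29.0 and the partner 18.2 above the median of the empty spots, so that this share rests on small differences.

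miR-203b is a relative of the skin miRNA miR-203a. miR-203b* had spots of 42.9, 48.8 and 46.2 at 17 dph and of 55.0, 49.8 and 59.9 at 29 dph. Its partner was much brighter, at 73.9 ± 8.86 and 813 ± 34.1. The starred share at 29 dph was 2.04% ± 0.540, and 6.32% with no background correction. At 17 dph, where the partner was close to the limit, the share could be as high as 44.9%, so the stages could not be compared.

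miR-129, known from the brain in mammals, gave the weakest detected member. miR-129* had spots of 42.3, 46.4 and 46.3 at 29 dph against a limit of 45.6, and was detected by 2 of its 3 spots. The partner miR-129 had spots of 42.8, 54.4 and 43.9 and was not detected, so no share was computed. With the limit from the median and MAD, with a limit of the mean + 5 SD, or with all spots required, miR-129* was no longer detected and 5 of the 30 remained above the limit. miR-181a* had spots of 43.5, 47.2 and 44.9, only 1 of them above 45.6, and was not detected. Its mean was nonetheless slightly higher than that of miR-129*, and both means were below 45.6. The rule on spots, and not the mean, thus separated these probes. miR-181a* passed when the limit was the 99th percentile of the empty spots.

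In 3 of the 5 pairs with both strands detected at 29 dph, those of miR-9, miR-210 and miR-30e, the starred probe was the brighter. In the other 2, miR-133a and miR-203b, the partner was. The name of a passenger strand thus did not go with the dimmer probe in these 3 pairs, within the limit that the probes bind differently.

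The remaining 24 starred probes were not detected on either array. Their mean densities at 29 dph ran from 37.5 to 45.2 with a median of 39.2, against a median of 38.8 and a highest value of 44.7 in the empty spots. Of the 24, 23 had a mean under the brightest empty spot, the exception being miR-181a*. At 17 dph the 29 undetected probes had means from 40.2 to 51.0, and 7 of them lay above the median of the empty spots. The brightest of the 24 at 29 dph after miR-181a* (45.2 ± 1.90) were miR-20a*, miR-727*, miR-27c* and miR-2185*, with densities of 41.4, 40.6, 40.1 and 39.9. At 17 dph they were miR-2185* and miR-181a* at 46.1 and 46.0, then miR-727* at 45.6, miR-132* at 45.4 and miR-20a* at 45.01.

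For 14 of these 24 the partner was detected at 29 dph, and the detection limit then sets an upper limit on the starred share. Each such limit is for the zebrafish target of the starred probe and does not cover variants of that sequence. Some probes for variants, described below, were above the detection limit, and by construction had larger shares with the partner. The limit was lowest for miR-181a, a miRNA of lymphocytes in mammals, whose partner was the brightest of the 30 at 2364 ± 152. The share of its starred probe was at most 0.292% by this limit, and at most 0.332% by the limit from the median and MAD. Of its spots 1, at 47.2, lay above the detection limit, so these values are not firm bounds for single spots. The share was at most 0.854% for miR-17a and 1.04% for miR-20a, whose partners had densities of 829 ± 26.7 and 687 ± 14.4. For the endothelial miR-126 it was at most 1.10%.

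The share was at most 2.19% for miR-10d, encoded in a Hox cluster, and 2.20% for miR-182, a miRNA of sensory organs. With miR-133b, these made 7 pairs with a share under 5%. For miR-10d and miR-15a a pufferfish probe without a star was also present. For miR-10d it gave 347 ± 11.4 at 29 dph beside 343 ± 13.9 for the zebrafish probe, and the starred share against it was at most 2.16%. For miR-15a it gave 545 ± 32.8 beside 94.0 ± 5.40, and the starred share was at most 1.33% against it but 11.0% against the zebrafish probe. These pufferfish limits were computed after the data were seen.

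The other 7 pairs had dim zebrafish partners, and their limits were looser. Beside miR-15a they ran from 11.5% for the neuronal miR-132 to 12.8% for miR-2188, 19.7% for miR-27c, 27.4% for miR-19b, 40.9% for miR-727 and 56.2% for miR-1788. In the last, the partner itself was barely detected, at 44.1 ± 3.10. At 17 dph, with the higher limit and dimmer partners, the 9 upper limits ran from 2.20% for miR-181a to 44.9% for miR-203b, with a median of 12.1%. A change in share between the stages could not be tested for any of these pairs.

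In the 10 pairs with neither strand detected at 29 dph, nothing can be said of the balance of strands. They were miR-10a, miR-18b, miR-19a, miR-126b, miR-202, miR-459, miR-723, miR-1388, miR-2185 and miR-2187. Of these, miR-126b is a pair by name only, since both of its probes target the same strand. For miR-202, a miRNA known from fish gonads, the starred probe had a density of 39.8 ± 0.970 and the partner one of 40.9 ± 1.19 at 29 dph. Those of miR-459, a miRNA of fish, were 37.6 ± 1.67 and 38.2 ± 1.38.

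The next question was whether the detected starred probes differed between the stages. Background-corrected log2 signals were quantile-normalized, which makes the distribution over the probe spots equal on both arrays. A detected probe was called higher or lower if the 29 dph signal differed from that at 17 dph by a log2 value of 1 or more and no spots of the arrays overlapped. By this rule of size 0 of the 6 were higher and 0 lower. Among the 124 detected conserved probes without a star, 8.87% were higher and 17.7% lower, and among all 688 detected probes 12.6% and 12.1%. With 6 probes, a count of 0 is a description only. All of the 6 but miR-210* were at background at 17 dph, with normalized log2 signals from 5.87 to 6.37. This left them little room for a lower call. The median log2 difference of the 6 was 0.076, against -0.29 for the 124 and 0.050 for the 688. Of the conserved probes without a star, 65 were detected at 17 dph. Neither the shares called nor the medians are thus a like comparison.

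miR-9* came nearest to a higher call, with a log2 difference (29 dph minus 17 dph) of 0.96. Its normalized log2 signal was 6.37 ± 0.39 at 17 dph and 7.33 ± 0.15 at 29 dph. As it was detected at 29 dph only, its fold was measured from the lowest normalized signal among detected probes at 17 dph. This gave at least 1.16-fold higher at 29 dph, a bound for the quantile-normalized signals only. miR-9* was called higher with no normalization between the arrays (2.15), with plain background subtraction (3.17), with no background correction (1.11) and in the authors' table (1.94). With cyclic loess, another normalization between the arrays, the difference of miR-9* was 0.51 and it was not called. When the arrays were scaled on the probes detected on both of them, its difference turned to -0.73 by their 75th percentile and to -0.27 by their median. Its partner miR-9 had a difference of 0.80.

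miR-210* had a log2 difference of -0.75, from 8.51 ± 0.21 at 17 dph to 7.77 ± 0.026 at 29 dph, and its partner one of -0.97. The direction depended on the scaling, since the densities themselves were higher at 29 dph and the difference without scaling was 1.51. It was called lower with scaling to the 75th percentile (-1.37), with plain background subtraction (-1.06) and in the authors' table (-1.24). A negative value is thus relative to the other probes of the array. Without scaling, the median difference of all 688 detected probes was 1.59.

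The other 4 detected starred probes, all at background at 17 dph, had measured differences of 0.30 for miR-133a*, 0.079 for miR-203b*, 0.072 for miR-129* and 0.057 for miR-30e*, and none had a lower bound above 1-fold. All 4 turned negative and were called lower with scaling to the 75th percentile (-2.14, -2.65, -2.82 and -2.45 in the same order) and to the median (-1.67, -2.19, -2.36 and -1.99). Both scalings shift every probe of an array by the same log2 value, including probes at background. The partners of the 4 had differences of -1.34 (lower) for miR-133a, 1.14 (higher) for miR-203b, -0.14 for miR-129 and -0.17 for miR-30e. In the 24 undetected probes the differences ran from -0.16 to 0.026, as values at background on both arrays do.

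The array also held 724 candidate probes with PC or PN codes. Their targets were searched for ones close to a starred target, since the starred probes carry the zebrafish sequence. By the rule of at least 15 shared bases in a row, 7 candidates were closest to a starred probe. By at most 3 mismatches without gaps over at least 18 bases, a rule chosen after seeing the data, 17 candidates were, and they matched 13 of the 30 starred probes. Of the 17, 4 had no mismatch, 6 had 1, 6 had 2 and 1 had 3. At 29 dph 10 of the 17 were above the limit and at 17 dph 1 was, where all candidates had shares of 76.8% and 47.5%. The count at 17 dph depends on the limit of 68.7, which 2 bright empty spots had widened. PN34, PC147 and PN53 had means of 60.4, 64.6 and 63.4 there, over the 55.9 found without these spots. The counts of the 2 stages are thus not a measure of change.

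The clearest case was miR-181a*, shown here with capitals at the bases that differ from the candidates PN177 and PC147.
miR-181a*: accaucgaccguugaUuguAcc
PN177: accaucgaccguugauuguGcc
PC147: accaucgaccguugaCuguGc
Counted from the 5′ end of miR-181a*, the difference of PN177 is A20G, and those of PC147 are U16C and A20G. The starred probe was not detected at either stage, while PN177 was detected at both. The densities of PN177 were 79.4 ± 9.39 at 17 dph and 84.7 ± 3.13 at 29 dph. It made up 3.19% ± 0.954 of its summed density with miR-181a at 17 dph and 1.94% ± 0.0785 at 29 dph, with spots from 2.11% to 3.83% and from 1.86% to 2.02%. The upper limits for the starred probe were 2.20% at 17 dph and 0.292% at 29 dph. A probe with a mean over the detection limit exceeds these by construction. The comparison thus adds nothing to the detection of PN177. At 17 dph the lowest spot, 2.11%, was below that limit, while at 29 dph every spot was above it. PC147 was detected at 29 dph only, at 58.6 ± 5.17, although its density at 17 dph was 64.6 ± 3.85. Its spots at 17 dph, 60.2, 67.6 and 65.9, were under the limit of 68.7. All of them were over 55.9, the limit without the 2 bright empty spots.

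For miR-9* the candidate PN34 differs at U11G, counted from the 5′ end of miR-9*, and has an extra base at its 3′ end. The capitals mark the base that differs.
miR-9*: uaaagcuagaUaaccgaaagu
PN34: uaaagcuagaGaaccgaaagua
PN34 stood at 60.4 ± 6.07 at 17 dph, below the limit, and at 143 ± 13.2 at 29 dph. The starred probe, with the zebrafish base, was brighter at 279 ± 47.5. A shorter candidate with the same difference, PN207, stood at 50.03 ± 4.09 at 29 dph.

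For miR-203b* and miR-133a* the candidates differ in length only. PN53 holds the whole target of miR-203b* and 1 more base at the 3′ end, while PN254 lacks the last 2 bases of miR-133a*.
miR-203b*: aGUGGUUCucaacaguucaaca
PN53: aGUGGUUCucaacaguucaacag
miR-133a*: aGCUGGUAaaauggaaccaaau
PN254: aGCUGGUAaaauggaaccaa
At 29 dph PN53 had spots with a mean of 112 ± 16.3, above the 54.9 ± 5.05 of miR-203b*, and made up 8.67% ± 1.77 of its summed density with miR-203b. PN254 had a density of 49.4 ± 3.53, below the 87.0 ± 5.41 of miR-133a*. In both cases the longer of the matched targets gave the brighter probe. Candidates that differ from each other in length only went both ways at 29 dph. The longer was the brighter of PN34 and PN207, and the shorter was the brighter of PC55 and PC352, described below. The part of length was not tested.

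Beyond miR-181a*, 3 undetected starred probes had a candidate above the limit at 29 dph, all at low densities. They were PN37 for miR-10d* (46.9 ± 0.942, differences G9A and U12C), PC55 and PC352 for miR-459* (57.1 ± 3.19 and 51.5 ± 0.529, differences G5A and U10A), and PC64 for miR-2188* (48.9 ± 1.15, differences U12C and C21U). PC55 and PC352 share nearly all of their target. Those without signal included PN219, a candidate for miR-30e* with differences G10U and A20U, at 42.9 ± 1.80 where miR-30e* itself was at 67.7 ± 2.52. Counting these candidates beside the starred probes, 10 of the 30 starred strands had a probe above the limit at 29 dph. No such search was made for the partners, so this count cannot be set beside theirs. Of all 724 candidates, 76.8% were above the limit at 29 dph. A match in sequence does not show that a candidate comes from the same precursor.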

How the data were processed

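Each of the 2 arrays was hybridised with Cy5-labelled small RNA of 1 stage. Per the labels' protocols, small RNAs were filtered from Trizol-extracted total RNA, given a poly(A) tail and ligated to a tag for staining. The authors deposited 1 mean density per spot, a linear intensity that still holds the background and is not scaled between arrays, judging by its values. Their series table holds 1 processed intensity per probe, also linear, whose background and scaling steps are unknown. The scanner and its software are not given in any source used here.

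Densities were corrected with normexp on all spots (limma 3.58.1, R 4.3.3, offset 50), log2-transformed, quantile-normalized over the probe spots and averaged over 3 spots. The offset and the common distribution compress differences of dim probes. Shares of a pair used densities minus the median of the empty spots, and the limit in place of a probe below it. Duplexes were computed with ViennaRNA RNAduplex 2.7.2, other values with Python 3.11.15, pandas 2.3.3 and NumPy 2.4.6. Every starred probe detected on at least 1 array was named, with its partner and matching candidates, and of the others the 5 brightest at each stage. Further undetected names were chosen after their values were seen. The members and rules were chosen with earlier results of these data known. The number of arrays limits the precision. Alternatives covered detection limits, background correction, scaling, the spot summary, thresholds and the authors' table.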

Additional observations from a re-analysis of the deposited data

Results flagged for a closer look

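Candidate probes, which are outside the 30 starred probes and their partners, held signal above the detection limit of the empty spots close to starred targets. At 29 dph the densities were 142.7 for PN34 and 50.03 for PN207 (near miR-9*), 46.9 for PN37 (miR-10d*), 49.4 for PN254 (miR-133a*), 84.7 for PN177 and 58.6 for PC147 (miR-181a*), 112.3 for PN53 (miR-203b*), 57.1 for PC55 and 51.5 for PC352 (miR-459*) and 48.9 for PC64 (miR-2188*). At 17 dph PN177 stood at 79.4. The part of probe binding in these values was not tested.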

How the results depend on the processing

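The count of starred probes detected at 17 dph was 1 under all 4 alternatives, and that at 29 dph was 5 under 3 alternatives and 7 under the 99th percentile. Calls between stages depended on the scaling, and the causes were not tested. The count of higher probes, 0 as reported, was 2 (miR-9* and miR-210*) with no normalization between arrays and 1 (miR-9*) with plain background subtraction, no background correction, the authors' table or a threshold of 1.5-fold. The count of lower probes, 0 as reported, was 5 with scaling to the 75th percentile (all but miR-9*), 4 with scaling to the median (all but miR-9* and miR-210*), and 1 (miR-210*) with plain subtraction, the authors' table or a threshold of 1.5-fold. The median log2 difference of the 6, 0.076 as reported, was 0.59 with no normalization, -2.30 with scaling to the 75th percentile, -1.83 with scaling to the median, 1.34 with plain subtraction and -0.43 in the authors' table. In the same order the conserved probes without a star had medians of 1.08, -1.80, -1.34, -0.53 and -0.65. The sets differ in how many probes were detected at 17 dph, so these medians are not a like comparison. The log2 change of the miR-210 ratio, 0.53 as reported, was 0.31 in the authors' table. It was 0.59 to 0.68 with normexp-corrected densities, no background correction or the median of the spots. Quantile-normalized signals, which gave a smaller change, were not among these alternatives.

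With no background correction the starred shares at 29 dph were 62.5% for miR-9, 54.3% for miR-30e, 15.7% for miR-133a, 6.32% for miR-203b and 70.0% for miR-210, and that of miR-210 at 17 dph was 59.3%. In the authors' table they were 62.1% for miR-9, 13.4% for miR-133a, 2.81% for miR-203b and 70.9% for miR-210 at 29 dph. With normexp-corrected densities they were 11.0% for miR-133a and 2.70% for miR-203b. The other shares moved by less than the spot SD, and no alternative changed which probe of a pair was the brighter. With the limit from the median and MAD, the lowest upper limit of a share was 0.897% at 17 dph and 0.332% at 29 dph. No paired analysis was possible because each stage has 1 array.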
